A study of Mus musculus with 8 samples.

Results

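The IRE1 and ATF6 arms are the branches of the unfolded protein response other than PERK. They were followed here through 10 genes, selected by symbol, of 55450 in the deposited count table. The 10 are the sensors Ern1 and Ern2 (IRE1 alpha and beta), the IRE1 substrate Xbp1, the sensors Atf6 and Atf6b, the processing proteases Mbtps1 and Mbtps2 (site-1 and site-2 protease), and Creb3, Creb3l1 and Creb3l2. The symbols name known parts of both arms, and were chosen with earlier results of these data known. RNA came from cells enriched for c-Kit, a growth factor receptor of blood precursors, mast cells and melanocytes, on magnetic beads from B16F10 melanomas. The 4 scramble libraries (numbers 2 to 5) came from tumours of control B16F10 cells, and the 4 PERK KO libraries (numbers 1 to 4) from tumours of B16F10 cells with PERK knocked out. All hosts were wild-type C57BL6 mice, injected under the skin with 150000 tumour cells at 6 weeks of age and killed on day 17. PERK was thus removed from the injected cells and not from the host cells, and the labels do not say whether the knockout line is 1 clone or whether each tumour came from its own mouse. If libraries share an animal, the p-values cover only the spread between these libraries.

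IRE1 is a kinase and RNase of the endoplasmic reticulum (ER) membrane that, when unfolded protein accumulates, cuts a short intron out of the Xbp1 messenger RNA. The spliced messenger encodes XBP1s, a transcription factor for ER chaperones, secretion and degradation genes, and IRE1 also degrades some other ER-bound messengers. ATF6 leaves the stressed ER for the Golgi in COPII vesicles, where site-1 and then site-2 protease release its transcription factor part, and the CREB3 family is processed in the same way. All of these steps act after transcription, so a gene count measures the amount of each messenger and not the activity of an arm.

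The intron is shown because its removal is the IRE1 step that the counts cannot see. It spans 26 bases at chr11:5524279-5524304 (mm10, plus strand, inside the coding part of Xbp1, exon 4 of the principal transcript). It was found in 3 of the 4 annotated Xbp1 transcripts of GENCODE M21, which are the 3 protein-coding ones. The lines give the messenger before and after its removal, 5′ to 3′ as DNA letters, with the intron in capitals.
Xbp1 unspliced: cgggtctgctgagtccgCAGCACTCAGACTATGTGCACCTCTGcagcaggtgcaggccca
Xbp1 spliced: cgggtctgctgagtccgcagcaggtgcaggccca
The forms differ in these 26 of the 2129 bases of the principal transcript. One count per gene therefore holds both forms, and the share of spliced Xbp1 was not analysed here.

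Gene positions are those of GENCODE M21 on mm10. The IRE1 arm comprised Ern1 (ENSMUSG00000020715.9) at chr11:106394650-106487852 on the minus strand, Ern2 (ENSMUSG00000030866.8) at chr7:122169893-122186207 on the minus strand and Xbp1 (ENSMUSG00000020484.18) at chr11:5520659-5525893 on the plus strand. The ATF6 sensors were Atf6 (ENSMUSG00000026663.6) at chr1:170704674-170867771 on the minus strand and Atf6b (ENSMUSG00000015461.15) at chr17:34647146-34655074 on the plus strand. The proteases were Mbtps1 (ENSMUSG00000031835.16) at chr8:119508156-119558735 on the minus strand and Mbtps2 (ENSMUSG00000046873.18) at chrX:157535371-157598715 on the minus strand. The CREB3 family members were Creb3 (ENSMUSG00000028466.15) at chr4:43562332-43567060 on the plus strand, Creb3l1 (ENSMUSG00000027230.9) at chr2:91982328-92024502 on the minus strand and Creb3l2 (ENSMUSG00000038648.5) at chr6:37327255-37442146 on the minus strand.

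The scramble libraries held 44950033 to 56697163 counts and the PERK KO libraries 29006949 to 47530393. Levels are given in CPM, counts scaled to a common library size with TMM factors, which correct for differences in library composition. On this scale a floor of 3 counts lies between 0.0515 and 0.1005 CPM over the libraries, for counting error only. Eif2ak3, which encodes PERK, fell from 54.3 ± 4.67 to 13.8 ± 7.07 CPM (SD, n = 4 and 4, edgeR adjusted p = 0.00371), with no overlap between the groups. Kit had 196 ± 23.7 and 175 ± 37.8 CPM (edgeR adjusted p = 0.559). Of 12 melanocyte lineage markers 8 fell and none rose, and their summed level was 25170 to 25780 CPM in scramble and 16660 to 20310 CPM in PERK KO. All 12 leukocyte markers rose (94.9 to 145 CPM summed in scramble, 302 to 1131 CPM in PERK KO), as did 8 of 9 macrophage markers. Other marker lists held genes below the filter's level in some scramble library, which passed it only with the help of PERK KO libraries, so the counts given leave such genes out. On that basis 8 of 8 mast cell, 5 of 6 dendritic cell and 2 of 3 plasma cell markers rose, and none fell. Summed levels in scramble and PERK KO were 23.3 to 166 and 706 to 3112 CPM for all mast cell markers, 15.2 to 36.4 and 149 to 834 CPM for all dendritic cell markers, and 57.4 to 117 and 219 to 646 CPM for all macrophage markers. Those of all plasma cell markers were 35.1 to 46.8 and 79.8 to 256 CPM. Of 13 markers of simple and glandular epithelium 3 were at the filter's level in all scramble libraries, and these 3 rose. The sum of the 13 was 5.77 to 7.93 CPM in scramble and 105 to 272 CPM in PERK KO. Of 13 markers of mucous and secretory epithelium 1, Lcn2, was at that level and rose. The sum of these 13 was 1.52 to 2.81 CPM in scramble and 128 to 295 CPM in PERK KO, carried by Fcgbp, Csn3, Wfdc18 and Lcn2. Of its defining mucous genes, Muc5b, Agr2, Tff2 and Tff3 had no count in any library, and Muc2 had 0 to 30 counts in scramble and 0 to 37 in PERK KO. Of 9 fibroblast and mural markers 1 rose (21.05 to 235 and 64.1 to 247 CPM), and of 7 endothelial markers none passed (37.1 to 188 and 69.4 to 255 CPM). In bulk RNA, fewer cells of a type and less RNA per cell cannot be told apart.

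Of the 10 genes, 9 passed the filter on low counts and were tested, Ern2 being the exception. Creb3l1 rose, Atf6 and Mbtps1 fell, and 6 did not pass the test. Over all 16662 genes tested, 13.8% passed at an edgeR adjusted p under 0.05, 7.66% as higher and 6.13% as lower in PERK KO. The CPM values of the groups did not overlap for these 3 genes, against 21.3% of all genes tested. The median log2 difference of the 9 was -0.01, beside -0.02 over all genes tested. The direction that held more calls over all genes depended on the scaling. Of the calls 55.5% were higher with TMM, 68.7% with upper-quartile factors and 47.7% with library totals alone.

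**Figure D1:**
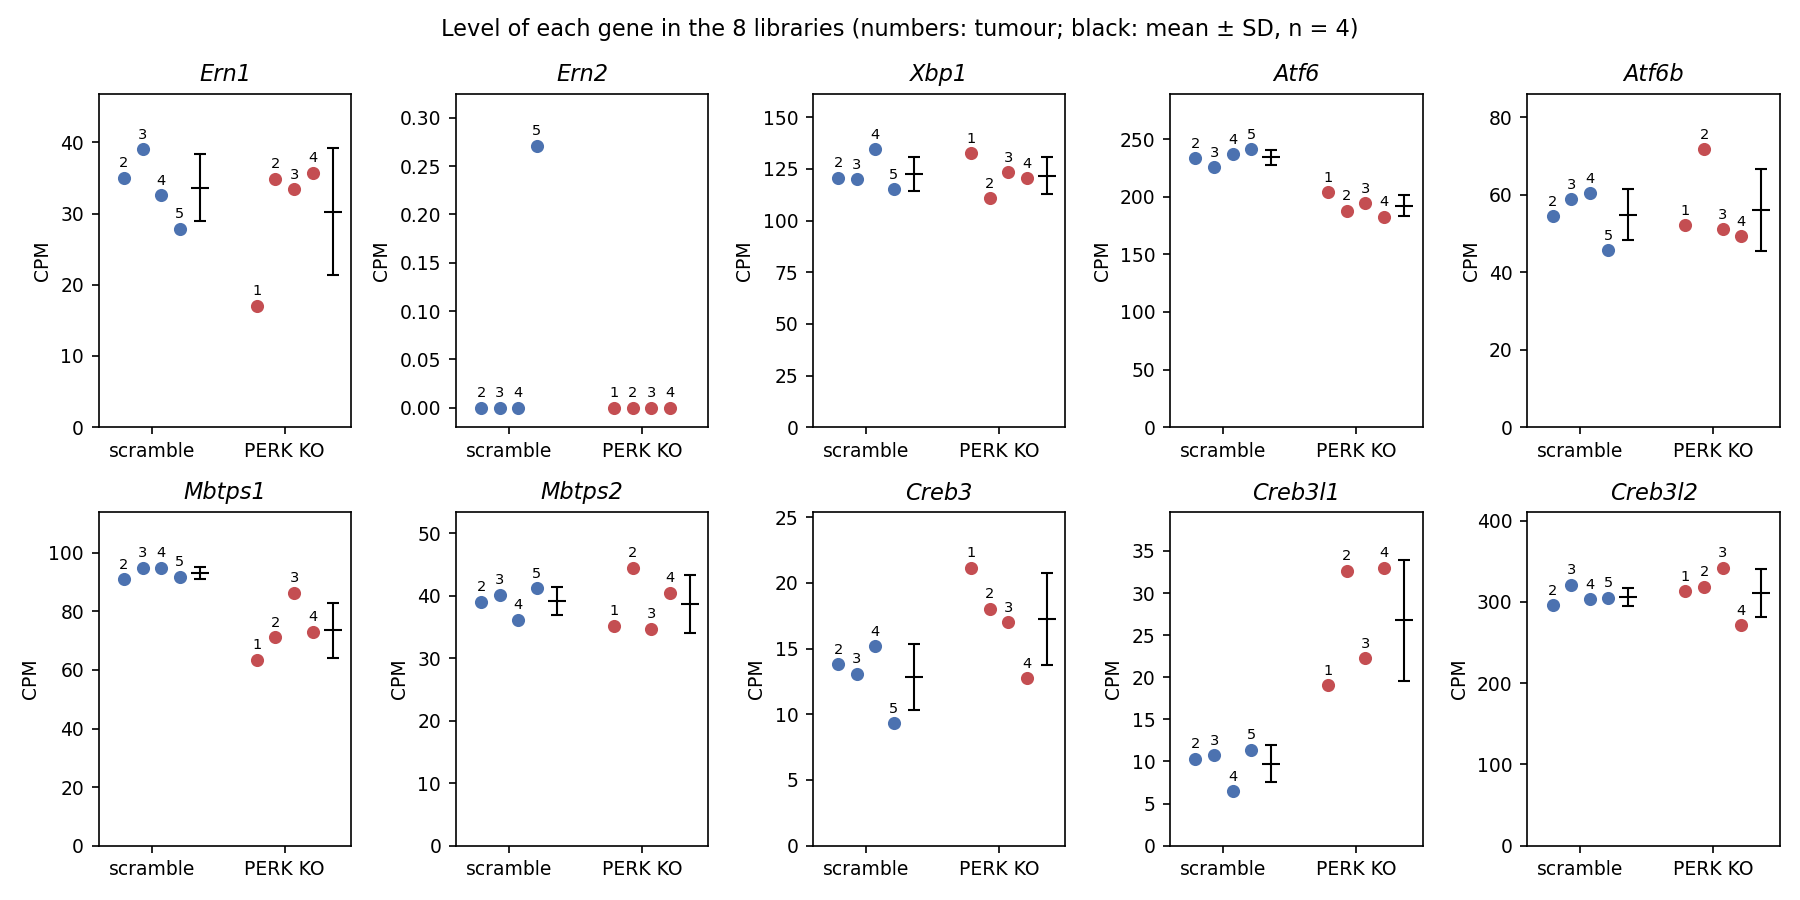
Each panel shows 1 gene, with CPM on the vertical axis from 0 (each panel has its own scale) and 1 point per library, labelled with its tumour number. Black marks are mean ± SD (n = 4), left out for Ern2. The groups are apart for Atf6, Mbtps1 and Creb3l1, PERK KO library 1 is low for Ern1 at 17.05 CPM, and Ern2 has counts in 1 library.

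Xbp1, the messenger that IRE1 splices, had nearly the same level in all libraries. It stood at 121, 120, 135 and 115 CPM in scramble libraries 2 to 5 and at 132, 111, 123 and 120 CPM in PERK KO libraries 1 to 4. The groups overlapped throughout, with means of 123 ± 8.35 and 122 ± 8.89 CPM (SD, n = 4 and 4). The log2 difference was -0.01 (SE 0.09, 95% interval -0.20 to 0.18, edgeR adjusted p = 0.967), so that the interval for the fold ran from 0.871 to 1.13. Xbp1 was among the more precisely measured genes, with a standard error below that of all but 3.88% of genes tested.

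Ern1, which encodes IRE1 alpha, had 35.03, 39.05, 32.6 and 27.9 CPM in scramble and 17.05, 34.9, 33.4 and 35.7 CPM in PERK KO. PERK KO library 1 was lowest of all 8, and the other 3 PERK KO libraries lay inside the scramble range. The log2 difference was -0.15 (SE 0.21, 95% interval -0.60 to 0.31, edgeR adjusted p = 0.737) and turned to 0.06 without PERK KO library 1 (adjusted p = 0.85). The library with low Ern1 did not have low Xbp1. The log2 ratio of Ern1 to Xbp1, which does not depend on library scaling, was -1.87 ± 0.21 in scramble and -2.06 ± 0.60 in PERK KO (SD, n = 4 and 4, exact two-sided permutation p = 0.8, adjusted p = 0.8 over 3 ratios). It was -2.95 in PERK KO library 1, and without that library the difference of -0.19 turned to 0.11. With 4 against 4 libraries, this test cannot give a p below 0.0286.

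Ern2, which encodes IRE1 beta, the form known from mucus-secreting epithelium, was close to absent. It had 14 counts (0.271 CPM) in scramble library 5 and no count in the other 7 libraries, which allows up to 0.1005 CPM in the shallowest of them. The summed level of simple and glandular epithelium markers was higher in the same PERK KO libraries that had no Ern2 count. Ern2 was below the filter and was not tested.

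Atf6 encodes the main ATF6 sensor and was the member whose difference had the smallest standard error. It had 233, 226, 237 and 241 CPM in scramble libraries 2 to 5 and 204, 188, 194 and 183 CPM in PERK KO libraries 1 to 4. All PERK KO libraries were below all scramble libraries. Atf6 fell by 0.29 on the log2 scale (SE 0.07, 95% interval -0.45 to -0.12, edgeR adjusted p = 0.0248), a mean of 192 ± 9.21 against 234 ± 6.66 CPM. Its standard error was below that of all but 0.162% of genes tested, so that a fall to 0.82 of the scramble level passed. The call ended without scramble library 2, 3, 4 or 5 (adjusted p = 0.0719, 0.0641, 0.0731 and 0.0745) or PERK KO library 4 (0.0506) and with upper-quartile factors (0.0798), while the difference stayed between -0.36 and -0.23 over all 18 alternatives.

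Atf6b encodes the paralogue of ATF6, which is processed by the same proteases. It had 54.5, 58.9, 60.5 and 45.7 CPM in scramble and 52.2, 71.8, 51.1 and 49.3 CPM in PERK KO. The groups overlapped, and PERK KO library 2 was the highest of all. The log2 difference was 0.03 (SE 0.14, 95% interval -0.27 to 0.33, edgeR adjusted p = 0.926), and its sign changed without scramble library 5, without PERK KO library 2, with library totals alone and in limma voom. The log2 ratio of Atf6 to Atf6b was 2.10 ± 0.21 in scramble and 1.79 ± 0.27 in PERK KO (SD, n = 4 and 4). That difference of -0.31 did not pass (exact two-sided permutation p = 0.0571, adjusted p = 0.171 over 3 ratios). A single ratio at the smallest p this test allows, 0.0286, would not pass after adjustment over the 3 ratios. Whether Atf6 fell apart from Atf6b was therefore not decided.

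Mbtps1 encodes site-1 protease, which makes the first cut in ATF6 and in the sterol factors of the SREBP family. It had 91.0, 94.95, 94.9 and 91.9 CPM in scramble libraries 2 to 5 and 63.5, 71.2, 86.3 and 73.1 CPM in PERK KO libraries 1 to 4. The scramble libraries lay close together and above every PERK KO library, of which library 3 was nearest. Mbtps1 fell by 0.34 on the log2 scale (SE 0.10, 95% interval -0.56 to -0.12, edgeR adjusted p = 0.0405). This call was close to the threshold. It ended without scramble library 2, 3, 4 or 5 (adjusted p = 0.0871, 0.113, 0.103 and 0.0855), without PERK KO library 1, 2 or 4 (0.079, 0.0796 and 0.0692), with RLE (0.0747) or upper-quartile (0.114) factors and with the stricter filter (0.0575). The difference stayed between -0.43 and -0.24.

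Mbtps2 encodes site-2 protease, which makes the second cut, inside the membrane. It had 39.05, 40.2, 36.1 and 41.2 CPM in scramble and 35.2, 44.5, 34.7 and 40.5 CPM in PERK KO, with overlap. Its log2 difference was -0.02 (SE 0.11, 95% interval -0.26 to 0.23, edgeR adjusted p = 0.957), and its sign turned with RLE and upper-quartile factors. The log2 ratio of Mbtps1 to Mbtps2 was 1.25 ± 0.10 in scramble and 0.92 ± 0.27 in PERK KO (SD, n = 4 and 4, exact two-sided permutation p = 0.114, adjusted p = 0.171). PERK KO library 3, at 1.31, lay inside the scramble range of 1.16 to 1.39, and the other 3 lay below it.

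**Figure D2:**
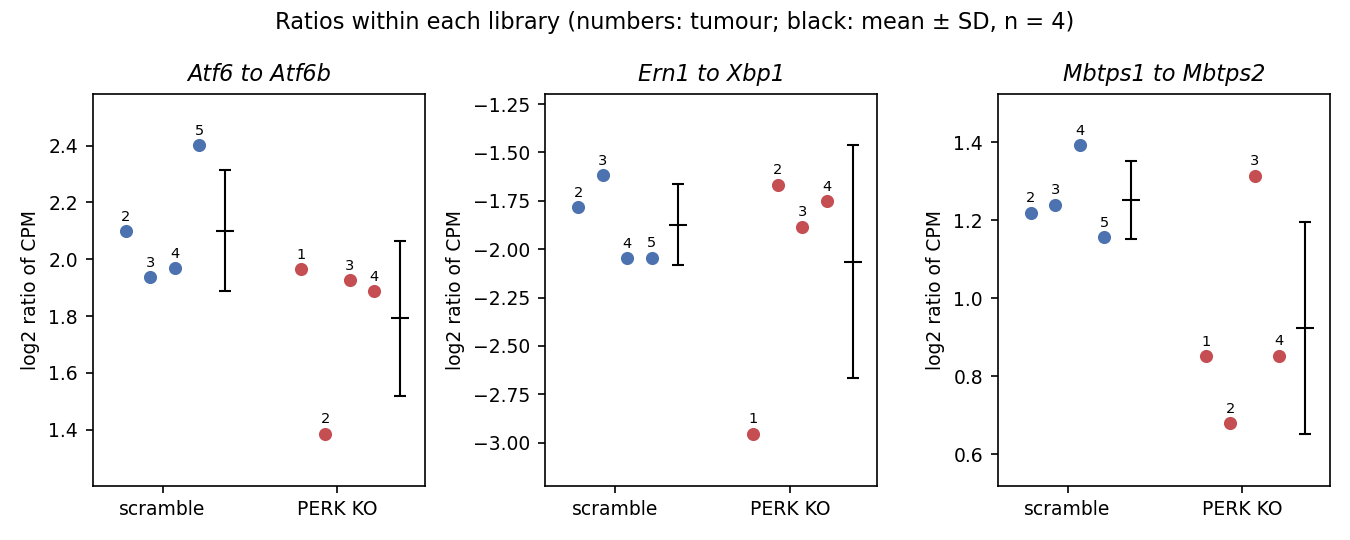
Vertical axes give the log2 ratio of the CPM of 2 genes within a library, with 1 point per library labelled by tumour number, and black marks for mean ± SD (n = 4). The groups overlap in all 3 panels, and 1 PERK KO library stands below the rest for Atf6 to Atf6b (library 2) and for Ern1 to Xbp1 (library 1).

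Atf6 and Mbtps1 were lower in PERK KO, as were the melanocyte markers. The markers had a median log2 difference of -0.47 over 12 genes, and their summed level did not overlap between the groups. Within PERK KO, Atf6 (183 CPM) and the marker sum (16660 CPM) were lowest in library 4. The sum was highest in PERK KO library 2 (20310 CPM), where Atf6, at 188 CPM, was below its level in libraries 1 and 3. In scramble, library 3 had the highest sum (25780 CPM) and the lowest Atf6 (226 CPM). Scramble library 5 had the lowest sum (25170 CPM) and the highest Atf6 (241 CPM). Mbtps1 was lowest in PERK KO library 1 (63.5 CPM), where the marker sum was 20260 CPM. The part of the melanocyte lineage in these 2 falls was not tested. By the naming rule, the genes with the pattern most like Atf6 over the 8 libraries were Uxs1 (Pearson r = 0.986), Tyr (0.984) and Msl1 (0.978), among 10945 genes compared. Uxs1 makes UDP-xylose, Tyr encodes tyrosinase, the enzyme that starts melanin synthesis, and Msl1 encodes a chromatin complex subunit. All 3 fell, by 0.50, 0.48 and 0.36 on the log2 scale (edgeR adjusted p = 0.00875, 0.00269 and 0.0117). The same rule gave Rasal3 (0.973), Rnf24 (0.970) and Ttyh3 (0.963) for Ern1, none of which passed the test (adjusted p = 0.927, 0.86 and 0.959). For Xbp1 it gave Vps4a (0.914), Hist2h2ab (0.912) and Znhit3 (0.907), of which none passed either (adjusted p = 0.85, 0.691 and 0.783). These correlations describe 8 libraries that share depth and the group difference, and were picked as the highest of many. A gene picked in this way tends to share the group difference of its member. Whether these genes passed or not is therefore no separate evidence.

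Creb3l1 was the member that changed most. It encodes OASIS, a membrane-bound transcription factor of the CREB3 family known for collagen secretion in bone-forming cells. It had 10.3, 10.7, 6.48 and 11.4 CPM in scramble libraries 2 to 5 and 19.1, 32.7, 22.3 and 33.02 CPM in PERK KO libraries 1 to 4. Every PERK KO library was above every scramble library, with libraries 2 and 4 the highest. Creb3l1 rose by 1.46 on the log2 scale (SE 0.23, 95% interval 0.96 to 1.96, edgeR adjusted p = 0.00273), or 2.75-fold, with means of 26.8 ± 7.15 against 9.73 ± 2.22 CPM. It ranked 241 of 16662 genes by p and passed in all 18 alternatives, with a log2 difference from 1.3 to 1.73. In the same PERK KO libraries the summed levels of epithelium, mast cell and other leukocyte markers were higher, and their part in the Creb3l1 rise was not tested.

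Creb3l2, which encodes a close relative of OASIS known from cartilage, had the highest CPM of the 10 and did not pass. It had 296, 321, 303 and 305 CPM in scramble and 313, 319, 342 and 271 CPM in PERK KO. The PERK KO libraries spread to both sides of the scramble range. The log2 difference was 0.02 (SE 0.09, 95% interval -0.16 to 0.21, edgeR adjusted p = 0.91), an interval of 0.893 to 1.16 for the fold. The sign turned without PERK KO library 3 and with library totals alone.

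Creb3, which encodes Luman, the founding member of the family, had 13.8, 13.1, 15.2 and 9.31 CPM in scramble and 21.2, 18.05, 17.02 and 12.7 CPM in PERK KO. Of the PERK KO libraries 3 lay above the scramble range and library 4 lay inside it. The log2 difference of 0.42 did not pass (SE 0.20, 95% interval -0.01 to 0.86, edgeR adjusted p = 0.203). Exons of Creb3 overlap those of Tln1 and Gba2 on the other strand. Tln1 had 15139 to 23716 counts per library in scramble, where Creb3 had 481 to 764, and whether strand was used in counting is not given in the sources used here. The Creb3 count is therefore uncertain.

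**Figure D3:**
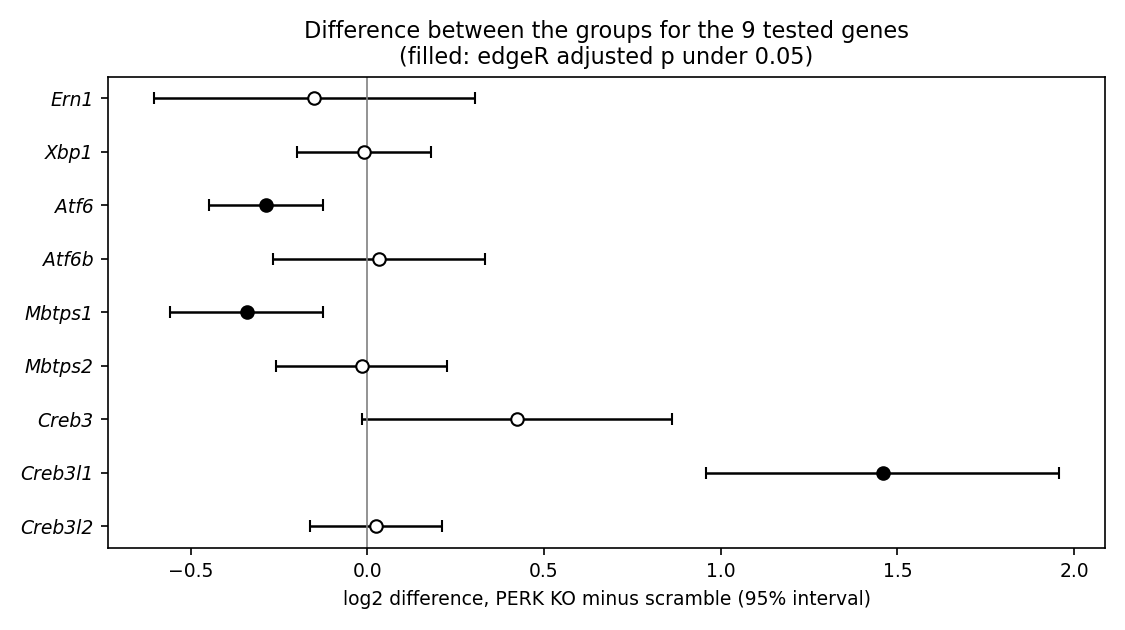
The horizontal axis gives the log2 difference between PERK KO and scramble for the 9 tested genes, with 95% intervals. Filled points passed the edgeR test: Creb3l1 at 1.46, Atf6 at -0.29 and Mbtps1 at -0.34, while the intervals of the other 6 include 0.

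To compare levels between genes, CPM was divided by the length of the principal transcript. In scramble, Xbp1 was highest with 57.6 CPM per kb, followed by Creb3l2 (43.3), Atf6 (32.3), Mbtps1 (21.5), Atf6b (21.4), Mbtps2 (10.1), Creb3 (6.82), Ern1 (4.84) and Creb3l1 (3.74), with Ern2 at 0.0232. The ranges of the 4 libraries overlapped between Mbtps1 and Atf6b, between Creb3 and Ern1 and between Ern1 and Creb3l1, so that these neighbours did not differ beyond their spread. In PERK KO, Creb3l1 stood at 10.3 CPM per kb, the sixth place, where its range overlapped that of Mbtps2 (9.95). Ern1 was then lowest of the 9 tested genes at 4.36 CPM per kb. The order depended on the length used. With all annotated exons of a gene in place of the principal transcript, Creb3l2 (42.1) was above Xbp1 (37.8) in scramble, and Mbtps2 (3.87) fell below Ern1 (4.11).

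**Figure D4:**
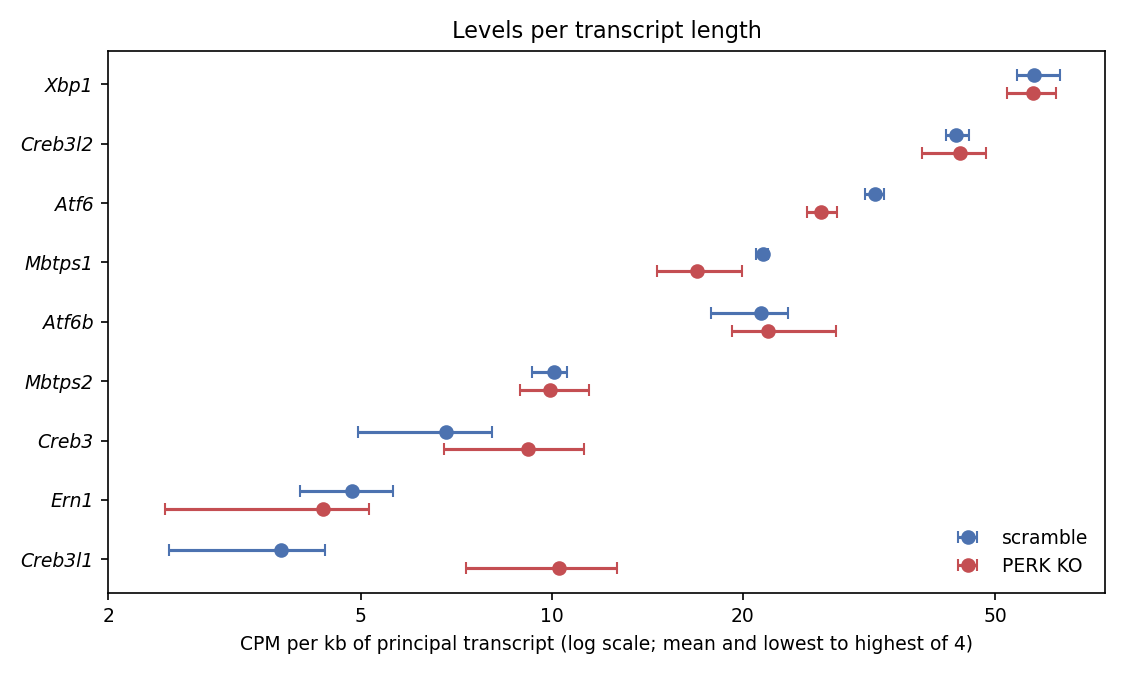
The horizontal axis gives CPM per kb of principal transcript on a log scale, with points for group means and bars from the lowest to the highest of 4 libraries. Ern2 is left out. Xbp1 and Creb3l2 lead in both groups, and Creb3l1 moves from 3.74 in scramble to 10.3 in PERK KO.

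Genes downstream of the arms were read from lists of textbook targets, given as counts beside the 13.8% of all genes that passed. Of 29 spliced XBP1 targets, all tested, 5 rose, 1 fell and 23 did not pass, with a median log2 difference of 0.15. With library totals alone the median was 0.08 and 4 passed, and with upper-quartile factors it was 0.20 and 9 passed. Kdelr3, a receptor that returns escaped ER proteins, rose by 2.52 (SE 0.33, edgeR adjusted p = 0.00113). It had 3.10, 1.32, 2.17 and 2.52 CPM in scramble and 10.9, 10.3, 11.1 and 19.99 CPM in PERK KO, with library 4 the highest. Fkbp14, a prolyl isomerase of the ER, rose by 0.70 (SE 0.16, adjusted p = 0.0149) and Sec61g, a subunit of the translocon, by 0.56 (SE 0.12, adjusted p = 0.0115). Dnajc3, a co-chaperone that inhibits PERK, fell by 0.32 (SE 0.07, adjusted p = 0.015). The Fkbp14 call ended without scramble library 2 or 3 (0.0529 and 0.0608), that of Sec61g without scramble library 3 (0.0516) and that of Dnajc3 without scramble library 3 or 5 (0.0638 and 0.0503). The other calls were Sec31a, a COPII subunit given below, and Tatdn2 (log2 difference 0.43, adjusted p = 0.0269), named after its values were seen. The count of called members was 11 with DESeq2, 3 without scramble library 2 or 5 and 1 without scramble library 3. Dnajb9 and Edem1, classic XBP1 targets named after their values were seen, did not pass, with log2 differences of 0.46 (adjusted p = 0.0738) and 0.14 (adjusted p = 0.317). The first passed with upper-quartile factors (0.046), DESeq2 (0.0176) and without PERK KO library 3 (0.0176).

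Of 19 ATF6 targets 18 were tested, of which 2 rose, 3 fell and 13 did not pass, with a median of 0.10 that ran from 0.03 with library totals alone to 0.16 with upper-quartile factors. Members moved both ways. Creld2 rose by 0.45 (SE 0.09, edgeR adjusted p = 0.00952) and Pdia4, a disulfide isomerase, by 0.31 (SE 0.08, adjusted p = 0.0207). Canx, the lectin chaperone calnexin, fell by 0.30 (SE 0.08, adjusted p = 0.0269), as did Dnajc3, which is shared with the XBP1 list, and Sel1l, an adaptor of ER degradation named after its values were seen (log2 difference -0.30, adjusted p = 0.0284). Hspa5, the ER chaperone BiP and the best known ATF6 target, named after its values were seen, had 890.1 ± 30.3 and 886.9 ± 74.8 CPM (log2 difference -0.01, 95% interval -0.19 to 0.18, adjusted p = 0.981), with a sign that turned under RLE and upper-quartile factors. The Pdia4 call ended without scramble library 2, 3, 4 or 5 (0.0829, 0.0779, 0.0548 and 0.0636) and with library totals alone (0.11). That of Canx ended without scramble library 2, 3, 4 or 5 (0.0773, 0.0819, 0.086 and 0.0608), without PERK KO library 2 or 4 (0.0543 and 0.0589) and with upper-quartile factors (0.0771). The count of called members was 2, 1, 3 and 1 without scramble libraries 2, 3, 4 and 5. The 2 target lists share 5 genes.

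**Figure D5:**
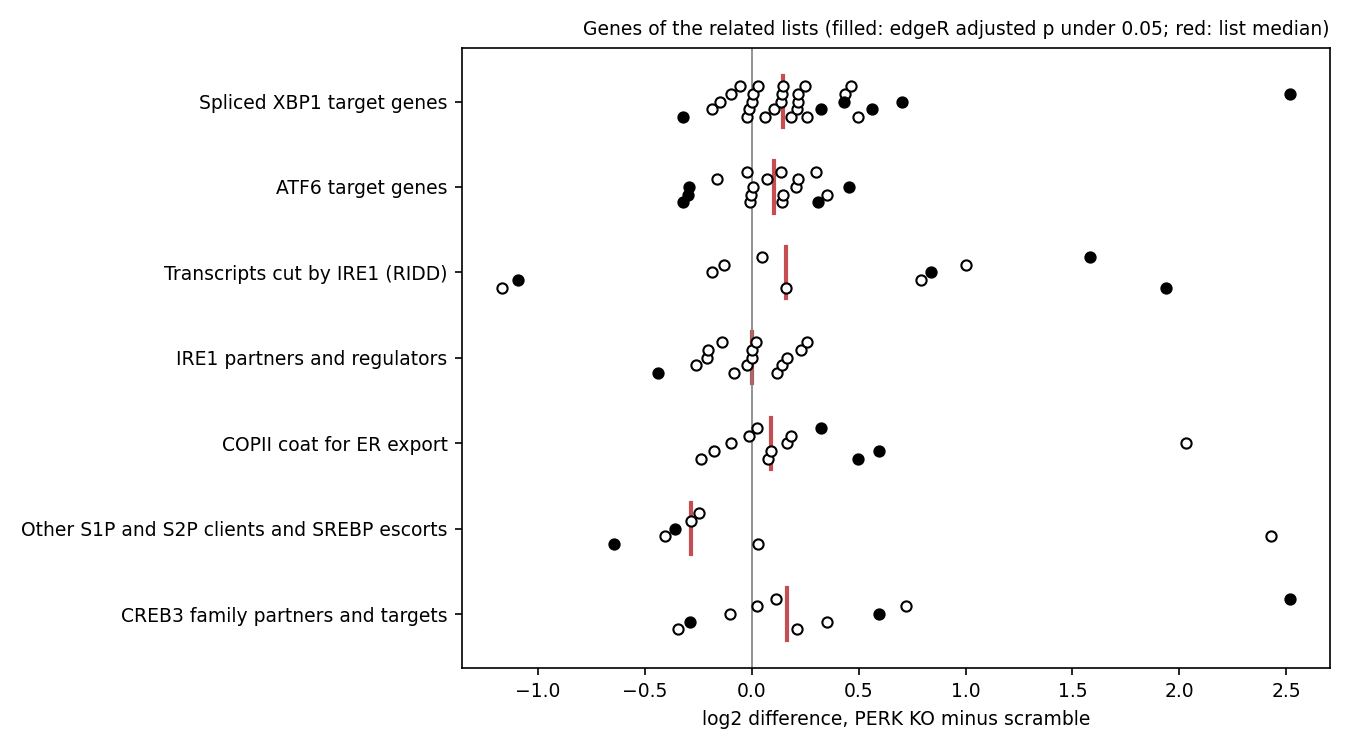
Each point is a tested gene of 1 of 7 lists, with its log2 difference between PERK KO and scramble on the horizontal axis, filled where the edgeR adjusted p was under 0.05. Red lines are list medians, which lie between -0.28 and 0.16. Kdelr3, at 2.52, appears in 2 lists.

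Messengers that IRE1 is known to degrade did not move one way. Of 11, 3 rose, 1 fell and 7 did not pass. These counts and the median include Scara3, which was below the filter's level in some scramble library. Of the 10 genes at that level in all scramble libraries, 3 rose and 1 fell. The median of 0.16 was -0.02 without scramble library 4 and 0.57 without scramble library 2. Pmp22, a myelin protein, rose by 1.58 (SE 0.29, edgeR adjusted p = 0.00574), Itgb2, an integrin chain of leukocytes, by 1.94 (SE 0.36, adjusted p = 0.00709) and Tapbp, a loading factor for MHC class I, by 0.84 (SE 0.21, adjusted p = 0.0239). The leukocyte markers rose in the same libraries, and their part in the Itgb2 and Tapbp rises was not tested. The Tapbp call ended without scramble library 2, 3, 4 or 5 (0.0595, 0.0588, 0.0761 and 0.0674) or PERK KO library 2 (0.0554). Hgsnat, a lysosomal acetyltransferase, fell by 1.09 (SE 0.13, adjusted p = 0.000668), from 133, 159, 125 and 141 CPM in scramble to 51.1, 78.2, 66.04 and 65.98 CPM in PERK KO. Every PERK KO library was well below every scramble library. Bloc1s1, the best known of these messengers and named after its values were seen, had 85, 35, 96 and 83 counts in scramble and 25, 0, 36 and 35 counts in PERK KO. These low counts gave a log2 difference of -1.17 with a 95% interval from -3.45 to 1.11 (adjusted p = 0.552), and of -1.89 in limma voom. Without PERK KO library 2, which had no count, the difference was -0.75.

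The second cut in Xbp1 lies in the letters CTGCAG, shown here beside the first such letters in the coding parts of Bloc1s1 and Hgsnat. Capitals mark the 6 letters.
Xbp1, chr11:5524302-5524307, plus strand, exon 4: ctatgtgcacctCTGCAGcaggtgcaggcc
Bloc1s1, chr10:128923376-128923381, minus strand, exon 1: gaacgcaaggagCTGCAGgagaagaggagg
Hgsnat, chr8:25971601-25971606, minus strand, exon 3: catgggtccatcCTGCAGgttaactccacc
The positions are in mm10. The coding parts of Bloc1s1 and Hgsnat hold 3 and 2 copies, and 64.7% of 22527 principal coding parts hold at least 1, so a match describes letters and not a cut site. CTGCAG reads the same on both strands, and only the messenger strand was searched.

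Partners and regulators of IRE1, among them its adaptor Traf2 and the tRNA ligase Rtcb that joins the cut Xbp1 ends, formed a list of 15. Of these, none rose, 1 fell and 14 did not pass, with a median of 0.00. The exception was Serpinh1, a collagen chaperone that binds IRE1, which fell by 0.44 (SE 0.08, edgeR adjusted p = 0.0059). Of 13 COPII coat genes, which carry ATF6 out of the ER, 3 rose, none fell and 10 did not pass, with a median of 0.09. These figures include Sec16b, which was below the filter's level in some scramble library. Of the 12 genes at that level in all scramble libraries, 3 rose and none fell. The cargo adaptors Sec24d and Sec24a rose by 0.60 (SE 0.12, adjusted p = 0.0081) and 0.49 (SE 0.11, adjusted p = 0.0137), and the outer coat subunit Sec31a by 0.32 (SE 0.09, adjusted p = 0.0359). Sec24d was highest in PERK KO library 1, at 115 CPM, against 81.2 to 82.2 CPM in the other 3 and 58.4 to 61.3 CPM in scramble. The Sec24a call ended without scramble library 2 (0.0524). That of Sec31a ended without any 1 of scramble libraries 2, 3, 4 and 5 (0.101, 0.087, 0.105 and 0.107), without PERK KO library 1, 2 or 4 (0.072, 0.0624 and 0.0694), with library totals alone (0.156) and with no filter (0.0555). Without scramble library 2 the count of called coat genes was 1.

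The last group of clients held other substrates of the 2 proteases and the escorts of SREBP. Of 8 genes, 7 were tested, of which none rose, 2 fell and 5 did not pass, with a median of -0.28. These figures include Creb3l4, which was below the filter's level in some scramble library. Of the 6 genes at that level in all scramble libraries, none rose and 2 fell. Insig1, which holds SREBP in the ER and is itself an SREBP target, fell by 0.64 (SE 0.12, edgeR adjusted p = 0.00624), with 123 to 142 CPM in scramble and 65.1 to 98.2 CPM in PERK KO. Gnptab, a Golgi enzyme that site-1 protease activates, fell by 0.36 (SE 0.08, adjusted p = 0.014), a call that ended without scramble library 3 (0.0588), which left 1 call in the list. With library totals alone 5 of the list passed, and with limma voom 4. Creb3l3, the liver member of the CREB3 family, had at most 6 counts in a library and was not tested. Creb3l4 had at most 32 counts and did not pass (log2 difference 2.43, SE 1.74, adjusted p = 0.433). Among 10 partners and targets of the CREB3 family, 2 rose (Kdelr3 and Sec24d, above), 1 fell and 7 did not pass, with a median of 0.16. Hcfc1, a transcriptional partner of Luman, fell by 0.29 (SE 0.08, adjusted p = 0.0309). Its call ended without scramble library 2, 3, 4 or 5 (0.104, 0.116, 0.0501 and 0.0566), without PERK KO library 2 (0.0601) and with RLE or upper-quartile factors (0.0582 and 0.0713).

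Promoter windows from 250 bases before to 50 after the start were taken from RefSeq (GRCm38.p6) and matched 7 of the 10 genes. Atf6, Creb3l1 and Ern2 had no entry. None of the 7 windows held, on either strand, the ER stress element ERSE, which 0.119% of 32851 windows hold. The same was true of ERSE-II (0.0365% of windows), of the XBP1 element TGACGTG (2.01%) and of the cAMP element TGACGTCA (1.79%). The letters CCACG, which are part of ERSE and ERSE-II, occurred in the windows of Creb3, Mbtps1 and Ern1, as they do in 32.8% of all windows. Absence of these letters from a window says nothing about the factors.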

How the data were processed

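Per the submitters' processing notes, the authors worked on mm10 and used DESeq2 1.30.1, HTSeq 0.6.1, STAR 2.5.3a and bcl2fastq. Settings, strand included, are not given in the sources used here. Results come from the deposited raw counts of each gene. A second deposited table, a signal made by scaling every library's counts with a single factor, served as a check of the first. All 55450 identifiers matched GENCODE M21 (GRCm38), which gave positions, transcripts and lengths (APPRIS principal transcript, or all exons).

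Genes were filtered with filterByExpr (16662 kept), scaled with TMM and tested with the robust quasi-likelihood test of edgeR 4.0.16 in R 4.3.3 (~ group), with Benjamini-Hochberg adjustment over all genes and a threshold of 0.05. Intervals are 95% from the fit. A prior count of 2 was added for log2 CPM, and ± is the SD. Ratios were compared by exact permutation over 70 assignments. The genes and lists were chosen with earlier results of these data known. Named genes were the 10, Eif2ak3, Kit, up to 4 called members of each list by p (2 of each marker list), and the 3 genes most correlated with Ern1, Xbp1 and Atf6 (mean log2 CPM of at least 1). Marker genes taken by this rule are given here through their lists' sums, except that Lcn2 and Fcgbp are also named. The other mucous and secretory epithelium genes in the text were named outside the rule.

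Alternatives were DESeq2 1.42.0, limma voom 3.58.1 with quality weights, other scalings and filters (stricter: CPM of at least 1 in 4 libraries), a fit that is not robust, a replicate block, leaving out each library, and, chosen after seeing the data, numbers 2 to 4 without the block and a block for the ratios. On simulated data for this comparison (16662 genes, 50 changed per size), 24, 54, 76 and 82% of 1.5-, 2-, 4- and 8-fold changes were recovered, with 8 false calls. Figures used Python 3.11.15 and matplotlib 3.10.9.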

Additional observations from a re-analysis of the deposited data

Results flagged for a closer look

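Of 92 sets of 4 values checked, 12 held a library set apart by Dixon's test; chance alone flags about 1 in 20 sets. The library labelled PERK KO 1, which has the lowest total, was set apart 6 times: low for Ern1 (17.05 CPM, others 33.4 to 35.7), for the log2 ratio of Ern1 to Xbp1 (-2.95, others -1.88 to -1.67), for Rnf24 (7.17 CPM, others 9.34 to 9.59) and for Ttyh3 (94.7 CPM, others 139 to 148), and high for Sec61g (72.9 CPM, others 54.4 to 57.1) and Sec24d (115 CPM, others 81.2 to 82.2). Rnf24 and Ttyh3 were chosen for their likeness to Ern1, and Znhit3 for its likeness to Xbp1, so they are no separate evidence. The flags for the 2 ratios repeat the flagged Ern1 and Atf6b values of the same libraries. The 12 flags are therefore not 12 separate observations. PERK KO library 2 was highest for Atf6b (71.8 CPM, others 49.3 to 52.2), lowest for the log2 ratio of Atf6 to Atf6b (1.39, others 1.89 to 1.97) and lowest for Bloc1s1 (0 CPM, others 0.836 to 0.91). PERK KO library 4 was highest for Kdelr3 (19.99 CPM, others 10.3 to 11.1). Scramble library 4 was highest for Znhit3 (12.5 CPM, others 8.89 to 9.47), and scramble library 5 for Ern2 (0.271 CPM, others 0).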

How the results depend on the processing

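Of 10 genes, Creb3l1 passed in all 18 alternatives, Atf6 in 10 and Mbtps1 in 6; the other tested members passed in none. The number of members called was 3 with all libraries, 1 with upper-quartile factors and 1 to 3 when a library was left out (1 without any 1 scramble library or PERK KO library 4). The number of all genes called was 2299, and 1078 to 2616 when a library was left out (1078 without scramble library 3). Both groups carry the numbers 2, 3 and 4. Deviations of same-numbered libraries from their group means had r = -0.00906, 0.0982 and -0.204. So few pairs can neither show nor exclude a pairing by number. With the replicate block on these numbers 199 genes and 1 member (Creb3l1) were called, and without it, on the same 6 libraries, 1334 and 1. Signs turned only for values that did not pass; the values on the log2 scale follow. RLE factors gave 0.0320 for Xbp1, 0.0261 for Mbtps2, 0.0019 for Rasal3, 0.0258 for Ttyh3 and 0.0366 for Hspa5. DESeq2 gave 0.0320 for Xbp1, 0.0262 for Mbtps2, 0.0020 for Rasal3, 0.0258 for Ttyh3 and 0.0365 for Hspa5. Upper-quartile factors gave 0.0482 for Xbp1, 0.0401 for Mbtps2, 0.0144 for Rasal3, 0.0401 for Ttyh3 and 0.0521 for Hspa5. The stricter filter gave 0.0207 for Xbp1, 0.0149 for Mbtps2, 0.0137 for Ttyh3 and 0.0253 for Hspa5. Library totals alone gave -0.0560 for Atf6b and -0.0514 for Creb3l2. Limma voom gave 0.0024 for Xbp1 and -0.0042 for Atf6b. With the replicate block the log2 difference was 0.0098 for Ern1, 0.0882 for Mbtps2, 0.0897 for Rasal3, 0.0054 for Rnf24, 0.1299 for Ttyh3, -0.0302 for Hist2h2ab and -0.0012 for Znhit3. On the same 6 libraries without the block it was 0.0054 for Ern1, 0.0929 for Mbtps2, 0.0899 for Rasal3, 0.0030 for Rnf24 and 0.1284 for Ttyh3. With 1 library left out the range was -0.2421 to 0.0553 for Ern1, -0.0434 to 0.0393 for Xbp1, -0.1027 to 0.0855 for Atf6b, -0.0816 to 0.0374 for Mbtps2, -0.0280 to 0.0804 for Creb3l2, -0.1485 to 0.1237 for Rasal3, -0.1331 to 0.0212 for Rnf24, -0.0826 to 0.1205 for Ttyh3, -0.1838 to 0.0538 for Vps4a, -0.0339 to 0.0579 for Hspa5 and -0.3228 to 0.1065 for the log2 ratio of Ern1 to Xbp1. The cause of these changes was not tested. For the ratios, a replicate block chosen after seeing the data (mean difference over 3 same-numbered pairs) gave -0.2677 for Atf6 to Atf6b, 0.0494 for Ern1 to Xbp1 and -0.3354 for Mbtps1 to Mbtps2 (exact sign-flip p = 0.25, 0.75 and 0.5; the smallest that 3 pairs allow is 0.25). On simulated data, with changed genes drawn at random, 24% of 1.5-fold changes were recovered, so a change of that size can be missed. This share is not that of each member. The 95% fold intervals of Xbp1 (0.871 to 1.133), Creb3l2 (0.8928 to 1.157), Mbtps2 (0.8364 to 1.17) and Atf6b (0.8305 to 1.259) did not reach a 1.5-fold change. Those of Ern1 (0.6575 to 1.236) and Creb3 (0.9905 to 1.817) did.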
